A study of Rattus norvegicus with 31 samples.

Results

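The immediate early growth response genes are genes whose transcripts appear within minutes of a growth factor, cytokine or stress signal, before any new protein is needed. The 10 genes described here are Fos (ENSRNOG00000008015), Jun (ENSRNOG00000026293) and Junb (ENSRNOG00000042838), Egr1 (ENSRNOG00000019422), Myc (ENSRNOG00000004500), Ier2 (ENSRNOG00000047811), Ier3 (ENSRNOG00000000827), Atf3 (ENSRNOG00000003745), Btg2 (ENSRNOG00000003300) and Gadd45b (ENSRNOG00000019822). They were chosen by their symbol in the gene column, out of 26312 genes in the deposited count table. All 10 were in both deposited tables and all 10 were among the 19904 genes that had a sum of at least 2 counts and were tested.

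Fos, Jun and Junb pair through leucine zippers to form AP-1, a transcription factor that binds DNA as a dimer, and Egr1 is a zinc finger transcription factor switched on by the same kinase cascades. Myc drives ribosome production and entry into the cell cycle, Atf3 is a stress-induced member of the ATF/CREB family, and Btg2 and Gadd45b hold back proliferation or mediate stress signals. In liver these genes are known for their rapid and short-lived rise after partial hepatectomy, and they also respond to handling, feeding and stress, so their levels in a single tissue sample are a snapshot.

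RNA-Seq was performed on livers of 31 young adult female Wistar rats (Crl:WI) gavaged daily for 28 days. The neonicotinoid insecticides thiacloprid (THI) and clothianidin (CTD) and the azole fungicide imazalil (IMZ) were given in aqueous carboxymethyl-cellulose, the vehicle that all 8 Control rats also received. Alone, THI was dosed at 108 mg/kg bw/day (n = 4), IMZ at 93 mg/kg bw/day (n = 4) and CTD at 288 mg/kg bw/day (n = 3). For this CTD dose, the paper records killing in moribund condition. The mixtures held 54 mg/kg bw/day THI with 46 mg/kg bw/day IMZ (THI + IMZ, n = 4), 54 mg/kg bw/day THI with 134 mg/kg bw/day CTD (THI + CTD, n = 4) or 46 mg/kg bw/day IMZ with 135 mg/kg bw/day CTD (IMZ + CTD, n = 4). The question put to these genes was whether the single compounds and the mixtures changed their expression in liver, and whether the mixtures departed from what the single compounds would give.

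Libraries held 31.8 M to 101 M counts, and the 23 treated libraries held at most 54.8 M. The lowest count of a member in any library was 23 for Atf3 and 36 for Fos, while no library held fewer than 358 counts of Btg2 or 492 of Ier3. The summed expression of 6 hepatocyte markers lay between 160400 and 250700 CPM (counts scaled to the size of the library) in every group, and that of 8 Kupffer cell and macrophage markers between 304.5 and 683.5 CPM. CPM values below are scaled by TMM, a normalization that sets libraries to a common composition. They were compared between rats within a gene and never between genes, as the transcript length was not taken into account.

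The proximal promoters of Junb, Ier2 and Btg2, 3 of the genes that were lower with CTD, are shown first for their match to the cyclic AMP response core, which CREB and ATF proteins bind to activate early genes. A sequence was given for Junb, Egr1, Ier2, Btg2 and Gadd45b. The 250 bases before the start of each gene come from RefSeq on build GRCr8 and were taken at chr19:40080876-40081125 (plus strand) for Junb, chr19:40399123-40399372 (plus strand) for Ier2 and chr13:48087691-48087940 (minus strand) for Btg2. The counts themselves were made on another build, Rnor_5.0. Capitals mark the core TGACG or, where present, its complete palindrome TGACGTCA, found on either strand.
Junb: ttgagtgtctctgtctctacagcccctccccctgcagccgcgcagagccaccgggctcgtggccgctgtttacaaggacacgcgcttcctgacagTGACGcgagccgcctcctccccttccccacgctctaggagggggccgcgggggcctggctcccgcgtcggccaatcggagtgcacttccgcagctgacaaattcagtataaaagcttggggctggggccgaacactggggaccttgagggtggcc
Ier2: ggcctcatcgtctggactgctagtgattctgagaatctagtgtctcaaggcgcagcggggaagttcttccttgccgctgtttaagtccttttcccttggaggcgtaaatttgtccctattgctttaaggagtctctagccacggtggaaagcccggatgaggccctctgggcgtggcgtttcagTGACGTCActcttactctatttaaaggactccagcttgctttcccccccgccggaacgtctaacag
Btg2: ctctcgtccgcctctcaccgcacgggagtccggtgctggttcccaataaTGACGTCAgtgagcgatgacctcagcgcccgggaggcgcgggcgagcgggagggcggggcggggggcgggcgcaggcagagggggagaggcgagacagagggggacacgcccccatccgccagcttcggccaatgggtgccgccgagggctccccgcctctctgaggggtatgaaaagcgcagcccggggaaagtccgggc
The core TGACG was found in 4 of the 5 promoters, in all but that of Gadd45b, and in 18.2% of 33469 rat promoters of the same length. The palindrome TGACGTCA, which contains the core on both strands, was found in Ier2 with 58 bases between it and the start and in Btg2 with 193 bases, and in 1.59% of all promoters. The AP-1 site TGANTCA was in none of the 5 and in 6.34% of all. A CArG box, the element bound by serum response factor, had 2 matches in Egr1 and occurred in 1.5% of all promoters. The TATA box TATAAA was found in Junb, with 43 bases between it and the start, and in 12.9% of all. These are matches of letters, and binding was not measured.

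The early genes varied more between rats of one group than most liver genes. The within-group SD of log2 CPM was 0.19 for the median of 11191 expressed genes. It was 0.96 for Fos, which put it at percentile 99.3 of these genes, and 0.94 for Egr1. Ier3 was the steadiest member with an SD of 0.38, at percentile 88.6. Within Control, the highest Egr1 value was 3.40 times the lowest, against 1.93 times for Ier3. Over all 31 rats, and so across groups, these ratios were 26.9 and 4.44, and the lowest Egr1 value was that of a CTD rat. The following comparisons are to be read against the spread within groups.

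Among the AP-1 genes, all 3 subunits were lowest on average in the CTD group. Jun, the subunit that can bind DNA as a homodimer, was measured at 39.4 CPM in the lowest, 65.4 in the median and 120 in the highest Control rat. With CTD it was 16.8, 17.5 and 27.1 CPM, so all CTD rats lay below all Control rats. Jun was down-regulated by CTD 3.37-fold (log2 fold change -1.75 ± 0.45 SE, adjusted p = 0.00765 in edgeR's quasi-likelihood test). Junb, a subunit that often restrains Jun, ranged from 33.5 over a median of 81.6 to 107 CPM in Control rats. It was 26.2, 14.2 and 22.3 CPM in the CTD rats, again without overlap, and was 3.6-fold lower (log2 fold change -1.85 ± 0.46, adjusted p = 0.00577). In bulk liver, fewer cells expressing these genes and less RNA per cell cannot be told apart.

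Fos, which needs a Jun protein as its partner, had the highest within-group SD of the 10 genes over all groups (0.96, against 0.94 for Egr1). Within Control alone its SD of log2 CPM was 0.61, below that of Atf3 (0.95), Myc (0.72) and Egr1 (0.62). Control rats had 2.27 CPM at the lowest, 4.37 at the median and 9.3 at the highest. The CTD rats had 0.936, 1.22 and 1.91 CPM, all below every Control rat, and the fitted log2 fold change was -1.83 ± 0.67. This did not pass the threshold of 0.05 after adjustment over all genes (adjusted p = 0.0728), whereas it did with the Wald test of DESeq2 (adjusted p = 0.0281).

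With THI + CTD, the 4 rats split in Fos. Replicates 2 and 4 had 8.45 and 14.9 CPM and replicates 1 and 3 had 1.08 and 1.32 CPM, so the group held both the highest value of the study and values near its lowest. The mean was 6.45 ± 6.61 CPM (SD, n = 4) against 4.74 ± 2.15 CPM (SD, n = 8) in Control, and the log2 fold change of 0.43 ± 0.51 did not pass (adjusted p = 0.695). Junb was 18.3, 41.6, 12 and 35.9 CPM in replicates 1 to 4, with the same replicates high and low, and 2 of its values overlapped the Control range. Its log2 fold change was -1.49 ± 0.39 (adjusted p = 0.0229), and without replicate 1 or without replicate 3 the adjusted p was 0.0863 or 0.126. Jun was 27.1, 56.5, 17.7 and 66.5 CPM in the same order and its log2 fold change of -0.71 ± 0.37 did not pass (adjusted p = 0.319).

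In the other groups the AP-1 genes overlapped the Control range. Fos in THI rats was 1.27, 1.95, 4.66 and 1.31 CPM in replicates 1 to 4, and only replicate 3 lay within the Control range. Its log2 fold change of -1.06 ± 0.56 did not pass (adjusted p = 0.601). Junb in IMZ rats was 16 to 48.5 CPM with a log2 fold change of -1.03 ± 0.38 (adjusted p = 0.408), and in THI + IMZ rats it was 26.7 to 177 CPM, the widest range of any group. The IMZ replicate 2 had 11.2 CPM of Fos when its group mates had 2.27 to 2.97 CPM. By group mean, Fos was highest in THI + CTD and then Control, IMZ, THI + IMZ, IMZ + CTD, THI and CTD, Jun was highest in IMZ and Junb in THI + IMZ. The ranges of neighbouring groups in these orders overlapped for all 3 genes.

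**Figure D1:**
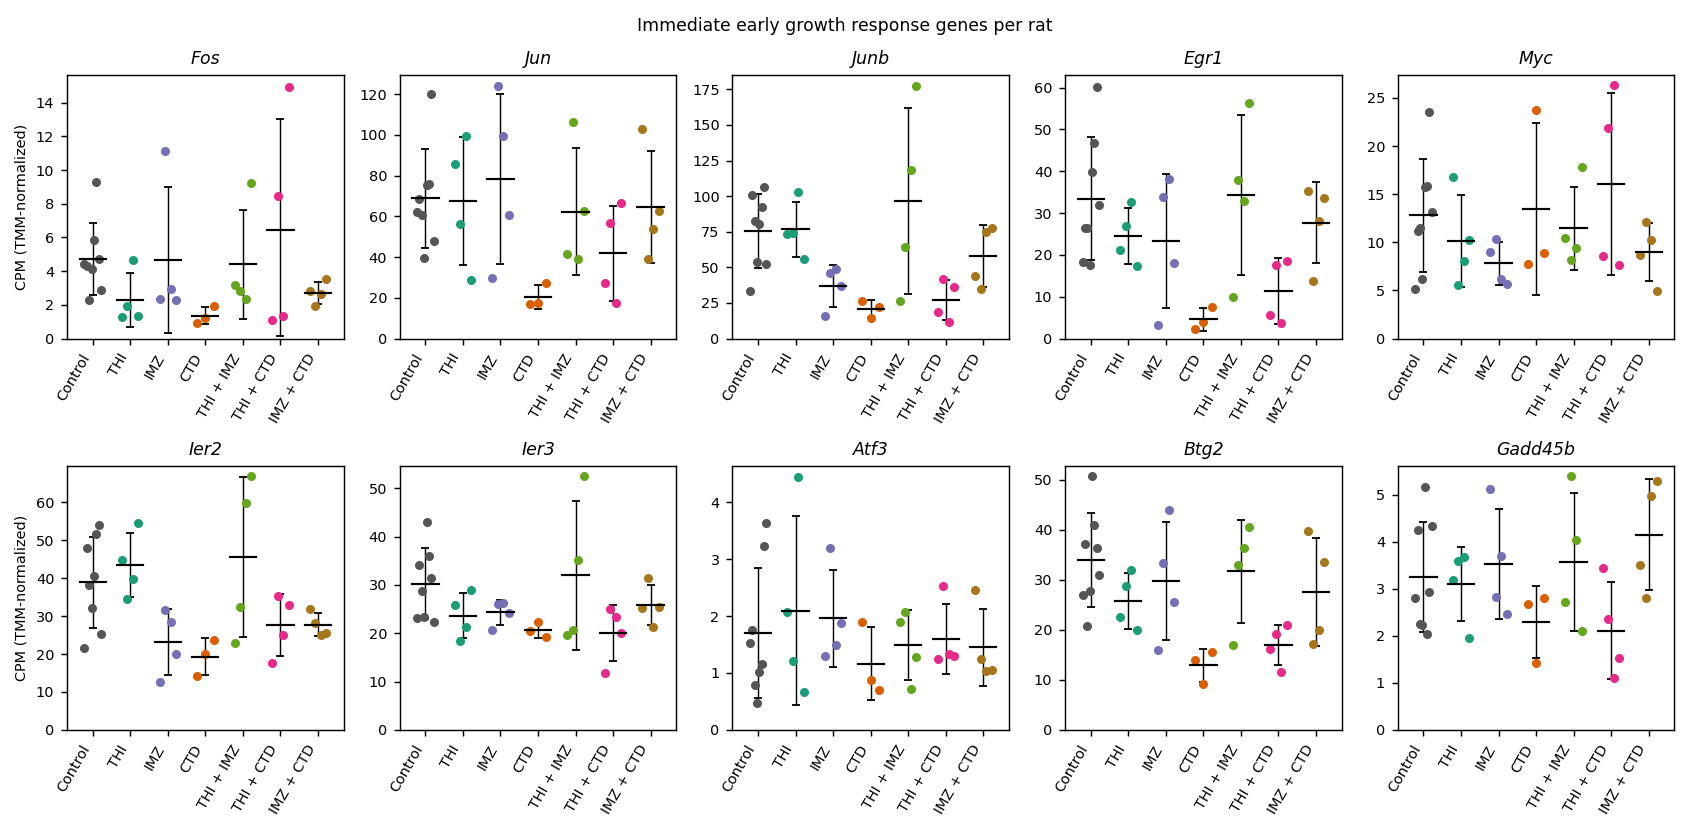
Expression of the 10 early genes in each rat by group, as TMM-normalized CPM on a linear axis from 0, with the group mean as a horizontal bar and the SD as a whisker (n = 8 Control, 3 CTD and 4 rats in each other group). The 3 CTD rats lie below all 8 Control rats for Fos, Jun, Junb, Egr1 and Btg2, and the THI + CTD rats split in Fos.

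Egr1, the zinc finger factor of this set, showed the largest difference of the 10 genes. Control rats ranged from 17.7 over a median of 29.2 to 60.2 CPM. The CTD rats had 2.24, 4.03 and 7.6 CPM. The groups did not overlap, and Egr1 was down-regulated 7.3-fold (log2 fold change -2.87 ± 0.62, adjusted p = 0.00188). The call remained in all 38 alternatives, with an adjusted p of at most 0.028. In THI + CTD rats Egr1 was 5.54, 17.7, 3.75 and 18.6 CPM in replicates 1 to 4, of which replicates 1 and 3 lay far below the Control range and replicates 2 and 4 at its lower end. The log2 fold change of -1.56 ± 0.5 missed the threshold (adjusted p = 0.0701; 0.0311 with DESeq2). IMZ + CTD rats had 13.9 to 35.2 CPM, and a single IMZ rat, replicate 1, had 3.22 CPM when the others of its group had 18.1 to 38.2 CPM. The order of the group means was THI + IMZ, Control, IMZ + CTD, THI, IMZ, THI + CTD and CTD, with overlapping ranges between neighbours.

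Myc did not follow the AP-1 genes or Egr1 in the CTD group. Control rats had 5.18, 12.3 and 23.5 CPM at the lowest, median and highest. The CTD rats had 7.75, 23.7 and 8.92 CPM, within or just above this range. The log2 fold change was 0.08 with a 95% confidence interval from -0.75 to 0.90 (adjusted p = 0.943). In the other groups its log2 fold change lay between -0.71 with IMZ and 0.33 with THI + CTD, and none passed. In THI + CTD its high rats were replicates 2 and 3, at 21.9 and 26.3 CPM, and replicate 4, the highest in Fos, had 7.62 CPM.

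Ier2 and Ier3 are early response genes induced along with Fos, of which Ier3 encodes a protein that modulates survival signalling. Ier2 ranged from 21.7 over a median of 39.4 to 53.9 CPM in Control rats and was 14.2, 20.1 and 23.8 CPM in the CTD rats. One CTD rat lay inside the Control range, at its low end. Ier2 was down-regulated 2.01-fold by CTD (log2 fold change -1.01 ± 0.30, adjusted p = 0.0238). Ier3 was 20.4, 22.4 and 19.2 CPM in the CTD rats against 22.3 to 43 CPM in Control, and its log2 fold change of -0.55 ± 0.24 did not pass (adjusted p = 0.138). With IMZ, Ier2 was 12.5, 31.7, 28.4 and 20.1 CPM, and its log2 fold change of -0.75 ± 0.27 did not pass either (adjusted p = 0.358). With THI + CTD, the log2 fold change was -0.49 for Ier2 and -0.59 for Ier3 (adjusted p = 0.335 and 0.116).

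Atf3, the stress-induced ATF/CREB member, had few counts and passed the threshold in none of the 6 comparisons with Control. It was 0.478 to 3.64 CPM in Control rats and 1.9, 0.879 and 0.708 CPM in the CTD rats. Its log2 fold change with CTD was -0.52 with a 95% confidence interval from -1.59 to 0.55, so changes within these bounds were not resolved.

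Of the anti-proliferative and stress genes, Btg2 was down-regulated and Gadd45b was not called. Btg2, a p53 target that slows the cell cycle and promotes mRNA deadenylation, was 20.9, 33.7 and 50.7 CPM at the lowest, median and highest in Control rats. The CTD rats had 13.9, 9.25 and 15.5 CPM, all below the Control rats. The decrease was 2.64-fold (log2 fold change -1.40 ± 0.30, adjusted p = 0.00176), and it passed in all 38 alternatives. In THI + CTD rats Btg2 was 16.1, 19.2, 11.6 and 20.9 CPM, and 3 of these 4 lay below all Control rats. The log2 fold change there was -1.0 ± 0.26 (adjusted p = 0.021), and without replicate 1 or replicate 3 the adjusted p was 0.0606 or 0.121. Gadd45b, which acts on the p38 and JNK stress kinase pathways, was 2.04 to 5.15 CPM in Control. It was 1.42 to 2.8 CPM with CTD and 1.11 to 3.45 CPM with THI + CTD. Its log2 fold changes in these 2 groups were -0.50 and -0.62 (adjusted p = 0.39 and 0.285).

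**Figure D2:**
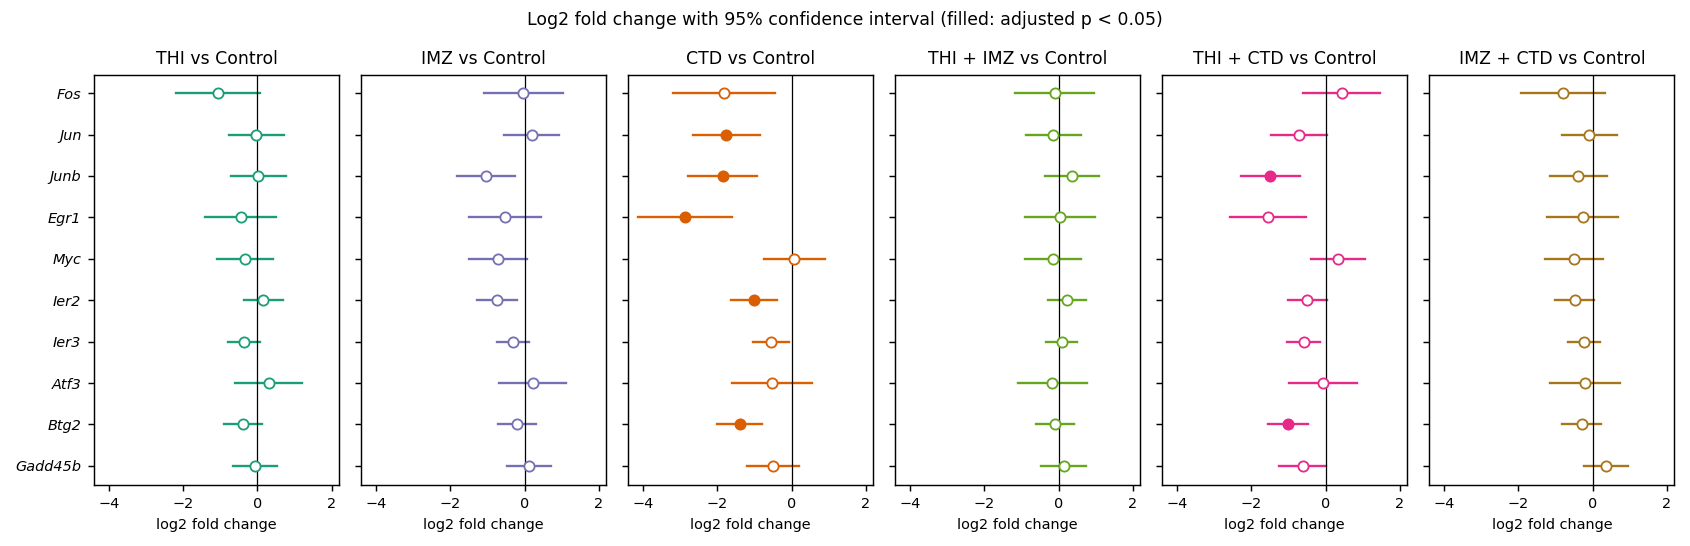
Log2 fold change of each early gene against Control in the 6 treatments, with its 95% confidence interval from the edgeR fit and a filled symbol where the adjusted p passed 0.05. In CTD 5 genes are filled, all on the lower side, in THI + CTD 2 genes, and in the other 4 panels none.

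Counted over the set, 5 of the 10 members were down-regulated by CTD and 0 were up-regulated, where 6.03% of all genes tested were lower, 6.62% were higher and so 12.7% were called in either direction. For 5 members, Fos, Jun, Junb, Egr1 and Btg2, all CTD rats lay below all Control rats, which was the case for 5.48% of all genes. The median log2 fold change of the 10 members was -1.21 and that of all genes tested was -0.07. Without CTD replicate 1 the count was 3, with Jun and Ier2 no longer past the threshold (adjusted p = 0.0584 and 0.161), and without CTD replicate 2 it was also 3, with Junb and Ier2 not past it (adjusted p = 0.0519 and 0.0734).

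With THI + CTD, 2 members were lower and 0 higher, beside 1.71% of all genes called lower, 2.67% called higher and 4.39% called in either direction. The count fell to 0 without THI + CTD replicate 1 and without THI + CTD replicate 3, the rats with the low Fos, Jun, Junb, Egr1 and Btg2 levels, and 0 members had all rats of this group below all Control rats, as 1.82% of all genes did. The members' median was -0.61, against -0.03 for all genes. With THI, IMZ, THI + IMZ and IMZ + CTD the quasi-likelihood test of edgeR called 0 members, where 0.543%, 0.251%, 1.18% and 1.46% of all genes were called, and DESeq2 also called 0. At an unadjusted p under 0.05 there were 2 members with IMZ, Junb and Ier2, where 8.08% of all genes had such a p, and 0 with THI, THI + IMZ and IMZ + CTD, where 8.68%, 11.1% and 12.8% did. The treatments were all compared with the same 8 Control rats, and so these comparisons are not independent of each other. In the test of any difference among the 7 groups, 4 of the 10 members passed (Junb, Egr1, Ier2 and Btg2, adjusted p = 0.0039, 0.019, 0.0232 and 0.0123), where 9.51% of all genes did. That count was 2 without CTD replicate 1 and 2 without CTD replicate 2.

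THI and CTD share the neonicotinoid class, and their doses as single compounds differed (108 and 288 mg/kg bw/day), so their values are set side by side without a comparison. Egr1 had a log2 fold change of -0.45 with THI and -2.87 with CTD. Jun had -0.03 and -1.75, Junb 0.02 and -1.85, and Btg2 -0.40 and -1.40. For Fos the values were -1.06 and -1.83, and neither passed.

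To address how the mixtures related to their components, each mixture was set against the sum of the log2 fold changes of its compounds, weighted by 0.5 for THI and IMZ and 0.47 for CTD, the approximate share of the single dose. No member departed from this sum after adjustment in any of the 3 mixtures, where 0.0151% of all genes did in THI + IMZ, 0.286% in THI + CTD and 1.16% in IMZ + CTD. At an unadjusted p under 0.05 in the same edgeR test there were 3 members in THI + IMZ, 1 in THI + CTD and 2 in IMZ + CTD, beside 6.46%, 9.66% and 14.3% of all genes. The number in THI + IMZ was 1 with a robust fit, 2 with DESeq2 and 3 with only the size factors of DESeq2. Fos with THI + CTD was the furthest from its sum, at 0.43 observed and -1.39 summed, a difference of 1.82 ± 0.53 (adjusted p = 0.177), in the group whose rats split. With IMZ + CTD, Egr1 was -0.27 where the sum was -1.61 (difference 1.34 ± 0.47, adjusted p = 0.164), and Junb was -0.38 where the sum was -1.39 (difference 1.00 ± 0.36, adjusted p = 0.183). Egr1 with THI + CTD was -1.56 where the sum was -1.57 (difference 0.02 ± 0.48), in a group whose rats also split in Egr1. In IMZ + CTD 8 of the 10 members lay above the sum, in THI + IMZ 8 and in THI + CTD 5.

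**Figure D3:**
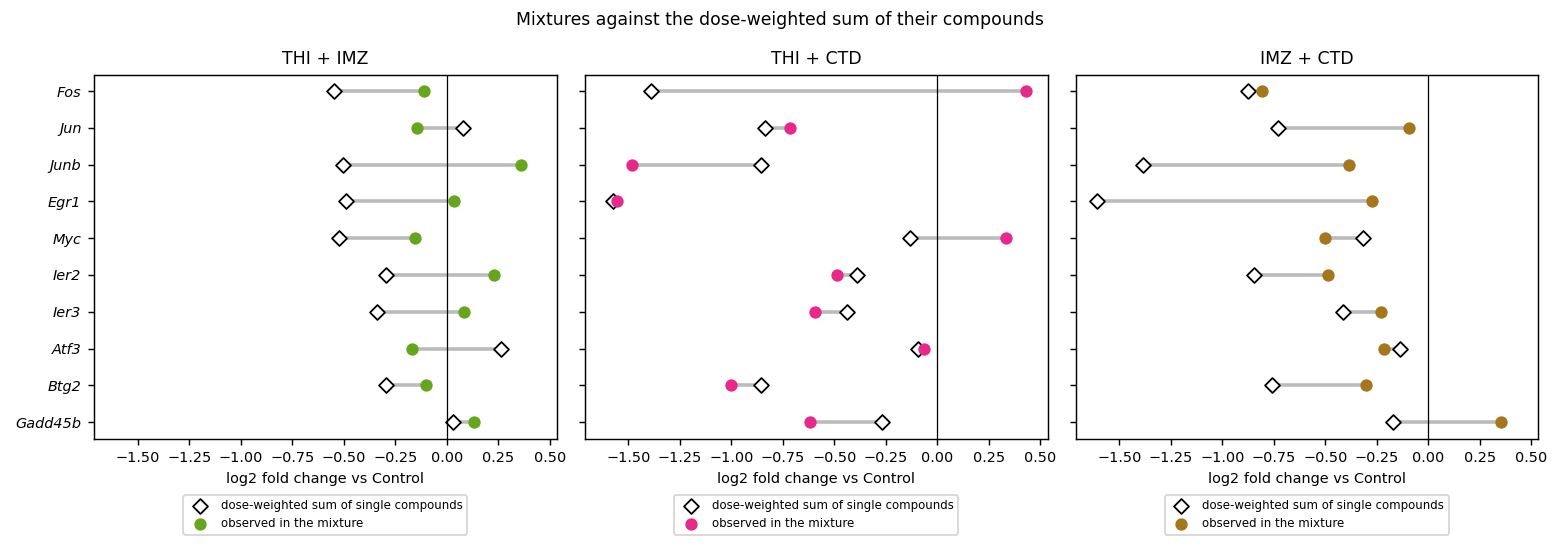
Log2 fold change against Control observed in each mixture (filled circle) and the dose-weighted sum of its single compounds (open diamond) for the 10 early genes, joined by a line. The longest line is that of Fos in THI + CTD, and no difference passed the adjusted threshold.

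Over the 31 rats, 5 of the other 9 members were correlated with Fos. The correlations used deviations of log2 CPM from the group mean. Among the largest Fos deviations were those of the THI + CTD rats, which split (-1.73, 1.18, -1.46 and 2.00 in replicates 1 to 4). The correlations were not computed without this group. Fos was correlated with Egr1 (Pearson's r = 0.64, permutation adjusted p = 0.019, Spearman's rho = 0.69, adjusted p = 0.0041) and with Jun (r = 0.63, permutation adjusted p = 0.019, rho = 0.66, adjusted p = 0.0041). Btg2, Junb and Ier2 also passed, with r of 0.53, 0.54 and 0.49 (permutation adjusted p = 0.019, 0.031 and 0.033) and rho of 0.63, 0.50 and 0.46 (adjusted p = 0.0041, 0.043 and 0.049). In contrast, Ier3, Atf3, Myc and Gadd45b did not, with r of 0.36, 0.23, 0.03 and -0.12. These were 9 relations, and p-values were adjusted over them. Genes outside the set were not correlated with Fos, so the share of all genes that moved with it is not known.

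The 2 rats whose Fos deviations lay farthest from the median were THI + CTD replicate 4 and IMZ replicate 2. Without them, r was 0.58 for Egr1, 0.55 for Jun, 0.52 for Btg2 and 0.52 for Junb, which still passed, and 0.43 for Ier2, which did not (permutation adjusted p = 0.07). By rho, 3 relations passed without these rats, and those of Junb (rho = 0.46, permutation adjusted p = 0.052) and Ier2 (rho = 0.39, permutation adjusted p = 0.11) did not. Among the 8 Control rats alone 0 of the 9 relations passed after adjustment by r or by rho. Before adjustment Btg2 passed by both (r = 0.76, permutation p = 0.03, rho = 0.76, permutation p = 0.037) and Jun by rho (rho = 0.81, permutation p = 0.022, with r = 0.41, permutation p = 0.3). Over all 45 pairs of members the median r was 0.34. The highest r was 0.81, between Jun and Egr1, and the lowest was -0.38, between Ier3 and Gadd45b. Of the 45 pairs, 38 were above 0 and 17 above 0.5, and pairs of genes outside the set were not counted beside them.

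**Figure D4:**
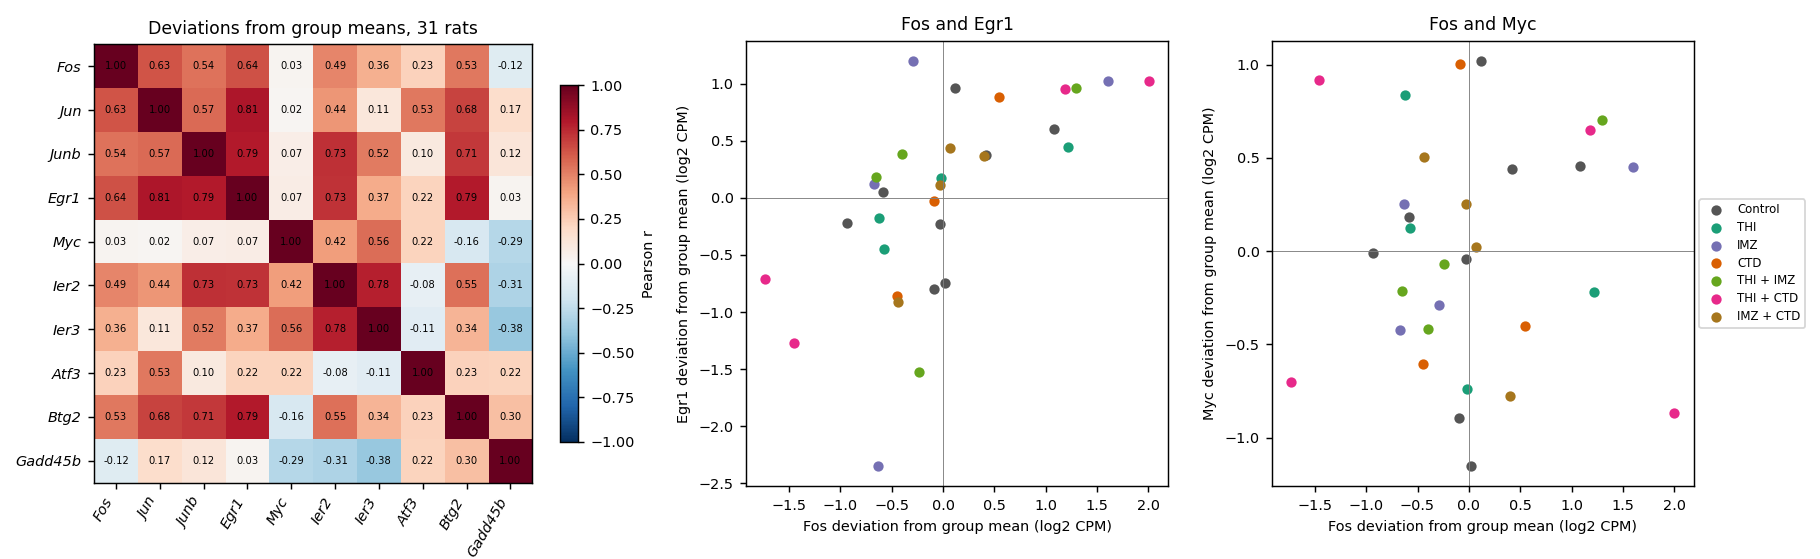
Pearson correlation between the early genes over 31 rats, computed on deviations of log2 CPM from the group mean (left), and the deviations of Egr1 (middle) and Myc (right) against those of Fos with each rat coloured by group. Egr1 rises with Fos (r = 0.64) and Myc shows no such relation (r = 0.03).

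The genes outside the set with the pattern most like its mean over the 31 samples were Dusp1 (r = 0.80), Zfp36l1 (r = 0.78), Zfp36 (r = 0.75), Dlc1 (r = 0.73) and Ppp1r15a (r = 0.72), out of 11181 genes compared. This is a description over samples that share groups and libraries. Dusp1 encodes a phosphatase that switches off MAP kinases, Zfp36 and Zfp36l1 encode proteins that destabilize AU-rich mRNAs, and Ppp1r15a encodes a regulatory subunit that dephosphorylates eIF2α.

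The related genes were followed in lists of their own in the CTD comparison, where 12.7% of all genes were called. Among 21 genes listed as feedback regulators, 8 were lower and 1 was higher with CTD. The list holds genes induced with the early genes, of which only some shut the response down. Dusp1 decreased from 166 ± 27.2 CPM (SD, n = 8) to 54.9 ± 18.3 CPM (SD, n = 3), with a log2 fold change of -1.60 ± 0.30 (adjusted p = 0.000383). Zfp36l1 (-1.25, adjusted p = 2.46e-05) and Zfp36 (-1.08, adjusted p = 0.00847) were lower as well, and the phosphatase gene Dusp4 was higher (1.33, adjusted p = 0.0331) at 0.28 CPM in Control and 0.724 CPM with CTD. The median of the list was -0.38. Its count of lower genes was 4 without CTD replicate 2 and 4 without CTD replicate 3, and the call of Dusp4 was lost without CTD replicate 1, CTD replicate 3 or Control replicate 6.

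Other transcription factors of the early response were measured too. Of 10 further AP-1 subunits, among them Fosb, Fosl2 and Jund, 0 passed in the quasi-likelihood test, with a list median of -0.31. Jund, the constitutive Jun protein, had 85 CPM in Control and 67.1 CPM with CTD (log2 fold change -0.34, adjusted p = 0.179). Of 11 other early transcription factors 1 passed, Egr2, a relative of Egr1 counted at 0.134 CPM in Control and 0.00867 CPM with CTD, near the limit of detection (adjusted p = 0.047). Of 13 secreted and matricellular early genes 0 passed, with a median of -0.11.

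Called genes of the upstream and downstream lists lay in both directions, beside 6.03% of all genes called lower and 6.62% called higher with CTD. They were few in each list and are given as a description. Among the growth factor and cytokine input genes, Egf (-0.85) and Met (-0.46), the receptor of hepatocyte growth factor, were lower. Of 16 AP-1 and Egr1 target genes, Ccnd1, the gene of cyclin D1, was higher at 41.3 ± 12.9 CPM (SD, n = 3) against 20.2 ± 2.93 CPM (SD, n = 8), a log2 fold change of 1.03 ± 0.19 (adjusted p = 0.000364). Nab1 (0.31), a corepressor of Egr proteins, was higher and Tgfb1 (-0.79) was lower. Of 19 Myc target genes 2 were higher, the nucleolar genes Fbl (0.99) and Nop58 (0.42), and 2 were lower, Hspe1 (-0.37) and Cdk4 (-0.22). Among 15 family members of Myc, Btg2 and Gadd45b, Mxd3 was higher (3.02) and Mxd1 was lower (-0.51). Both encode partners of Max that oppose Myc, and Mxd3 is known to be expressed in cycling cells.

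Among 13 stress and p53 companions, Asns, the asparagine synthetase gene and an ATF4 target, was higher (2.47), and Sesn2 (-1.17), Ppp1r15a (-1.11) and Sesn1 (-0.58) were lower. Of 10 glucocorticoid-responsive genes 5 were lower and 0 higher, and the largest were the metallothionein genes Mt2A (-3.03) and Mt1a (-2.37), followed by Per1 (-0.96). This count was 1 without CTD replicate 1, 2 without CTD replicate 2, 3 without CTD replicate 3 and 3 without Control replicate 5. All 10 cell division genes were higher, with a median of 2.96, and Cdk1, Top2a and Ccnb1 had the largest log2 fold changes (3.44, 3.40 and 3.24). The lists were also read in the treatments where no early gene was called. The cell division genes called higher were 9 of 10 with IMZ + CTD (list median 2.33) and 8 with THI + IMZ (list median 1.91). They were 0 with IMZ (list median 1.45) and 0 with THI (list median -0.02). Of all genes, 1.46%, 1.18%, 0.251% and 0.543% were called in these comparisons, in either direction.

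**Figure D5:**
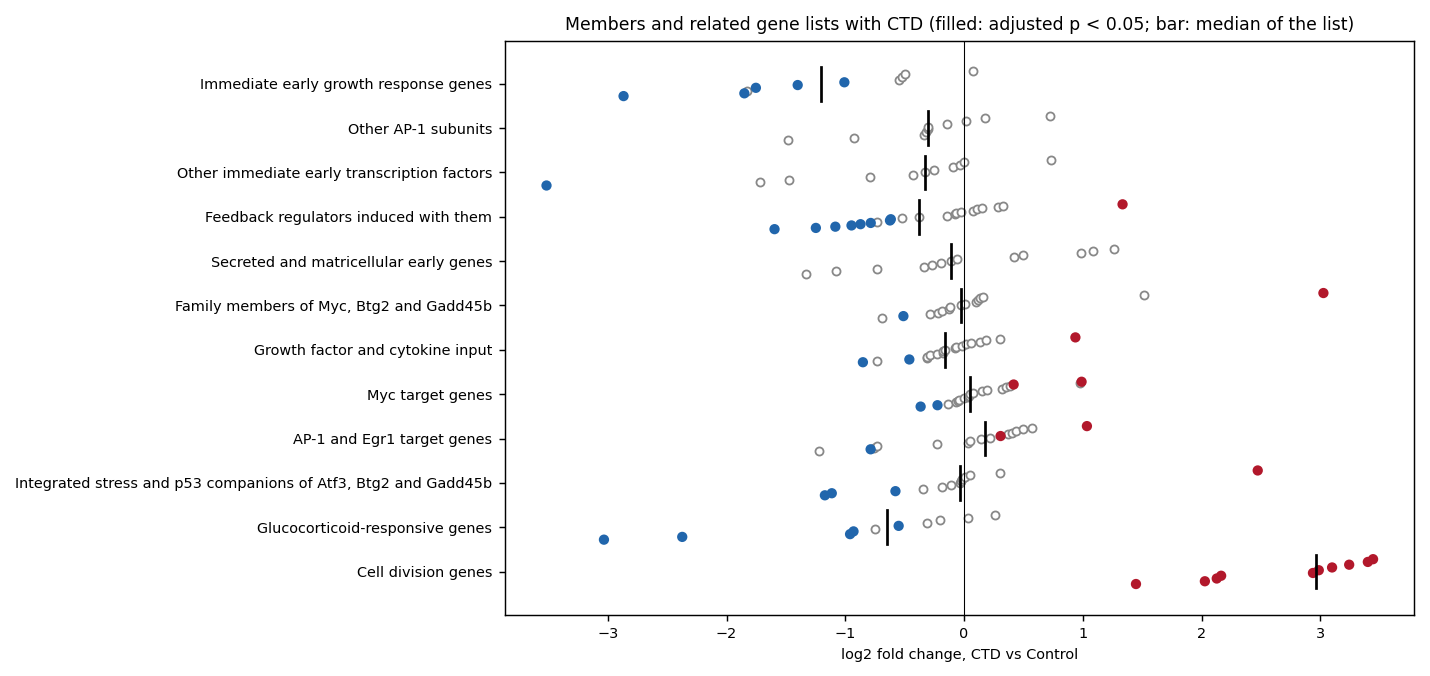
Log2 fold change with CTD against Control for the early genes and for genes of 11 related lists, each point a gene, filled where the adjusted p passed 0.05 (blue lower, red higher), with a bar at the median of the list. The medians are -1.21 for the early genes, -0.38 for the feedback regulators and 2.96 for the cell division genes.

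With THI + CTD, 1.71% of all genes were called lower and 2.67% higher. The feedback regulators held 1 lower gene there, Zfp36l1 (-0.63, adjusted p = 0.0182), and Ccnd1 (0.88) and 9 of 10 cell division genes were higher. Of 10 glucocorticoid-responsive genes 3 were lower there, Tat (-0.96), Zbtb16 (-0.94) and Tsc22d3 (-0.56). The growth factor gene Hgf (-0.64), the receptor gene Il6r (-0.42), the secreted Thbs1 (-0.55) and the p53 target Cdkn1a (-0.87) were also lower with THI + CTD, and Mxd3 (2.42) and Asns (1.49) were higher. With THI the called genes of the related lists were Cdkn1a (-1.49) and Tp53inp1 (-0.68), both p53 targets, and the glucocorticoid-responsive Per1 (-1.45) and Tsc22d3 (-0.84). With THI + IMZ, Dusp5 (0.72), Socs3 (1.59), the inhibitor of cytokine signalling, and Gadd45a (1.27), a relative of Gadd45b, were higher and Per1 was lower (-1.12). With IMZ + CTD, Mxd3 was higher (2.89) and Zbtb16 (-1.44), Per1 (-1.38) and Tsc22d3 (-0.66) were lower. With IMZ 0 genes of these lists passed.

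Some markers of other cell types were called in the CTD group, in both directions. Of 8 Kupffer cell and macrophage markers, 4 were lower (Cd68, C1qb, C1qa and Csf1r), and the sum of all 8 was 334 to 475 CPM with CTD and 427 to 684 CPM in Control. The count was 1 without CTD replicate 2 and 2 without CTD replicate 3. Clec4f, the defining Kupffer cell gene, was 137 CPM against 180 CPM and was not called (adjusted p = 0.14). Of 5 red blood cell genes, 4 were higher and Slc4a1 was lower, with a sum of 156 to 187 CPM with CTD and 27.3 to 67.6 CPM in Control. The call of Slc4a1 was lost without any 1 of the CTD rats and without Control replicate 5, 6 or 7. With THI + CTD, 4 macrophage markers were lower (sum 357 to 435 CPM) and Hbb was higher. In that group 1 hepatocyte, 1 T and NK cell and 1 sinusoidal endothelial marker were also lower. Of the stellate cell and fibroblast markers 1 was lower and 1 higher. Of the other cell types with CTD, 1 of 6 sinusoidal endothelial markers (Kdr) was lower, 1 of 6 stellate cell and fibroblast markers was lower (Reln) and 1 higher (Col3a1), and 0 of 6 hepatocyte, 6 neutrophil, 7 T and NK cell, 3 B and plasma cell and 5 cholangiocyte markers were called. The part of these cell types in the early gene results was not tested.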

How the data were processed

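Livers of 31 female rats in 7 groups were profiled by stranded total RNA-Seq. The authors aligned to Rnor_5.0 and used STAR (2.5.2b) for read counts of each gene, and the deposited count table holds these counts without normalization for 26312 genes. A further deposited table gives a normalized signal for the authors' 19904 retained genes, scaled by DESeq2 (1.15.1) size factors. It equalled the counts divided by 1 factor per library to a relative deviation of 1e-14, and served for this check only.

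Genes whose counts summed to 2 or more were tested with the quasi-likelihood test of edgeR 4.0.16 in R 4.3.3, with TMM normalization and 1 model over all 31 libraries with a mean for each group. The Benjamini-Hochberg adjustment ran over all 19904 genes (threshold 0.05). Each SE was derived from the log2 fold change and its F statistic. Correlations used log2 CPM with a prior count of 2 and 100000 permutations. Alternatives were DESeq2 1.42.0, its size factors, other filters, a robust fit, fewer groups in the fit, exact dose ratios, a replicate block and leaving out each rat. In simulated counts for CTD, 88% of genes changed by a log2 fold change of 1 and 99% of those changed by 2 were recovered among 19904 genes. The simulated counts were drawn with the spread typical of a gene's abundance. As the members varied more than most genes, these shares do not give the recovery of the members. Values per rat have no counting interval, as the errors given are those between rats.

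The members and lists were chosen with earlier results of these data known. Described were all 10 members, up to 3 called genes per direction of each related list, and the 5 genes most like the members' mean. Results for some single genes of the lists, called ones among them, are left out. No sequencing batch or order of dissection, and no strand setting of the counting, is given in the sources used here.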

Additional observations from a re-analysis of the deposited data

Results flagged for a closer look

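In 60 combinations of a gene and a treated or Control group of at least 4 rats, a single rat stood far from its group mates in 2. Chance gives about 1 in 20 combinations, so 2 of 60 is not more than chance gives. Fos was 11.2 CPM in IMZ replicate 2 and 2.27 to 2.97 CPM in the other 3 IMZ rats. Atf3 was 2.52 CPM in THI + CTD replicate 2 and 1.25 to 1.34 CPM in the others.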

How the results depend on the processing

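The 5 down-regulated members with CTD numbered 5 to 6 under other normalization, filters, robust fitting, fewer groups and DESeq2, and 3 to 6 when each rat was left out, with 3 without CTD replicate 1 or 2. The 2 members with THI + CTD numbered 1 with a robust fit, 4 with DESeq2 and 0 to 3 with a rat left out. Among the 7 groups the 4 members numbered 2 with a robust fit and 2 to 5 with a rat left out. The cause of these changes was not tested. Counts of 0 with THI, IMZ, THI + IMZ and IMZ + CTD and against the dose-weighted sum stayed 0 under every alternative run. The correlations of Fos that passed were 5, and 0 with only the 8 Control rats, where fewer samples remain.

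The replicate numbers of the labels were also entered as a replicate block. Deviations of same-numbered rats from their group means correlated between -0.17 and 0.33 in 23 pairs, 6 of them above 0.1, and 7 rats correlated best with their own number, so the numbers were not taken as pairs. With the block the count was 4 for CTD, without Ier2 (adjusted p = 0.0802), and 0 for THI + CTD. With CTD the glucocorticoid-responsive, macrophage and red blood cell genes numbered 1 lower, 1 lower and 1 higher with the block, against 5, 4 and 4 without it.

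Of 3820 values of the members under the alternatives, 3788 kept their side of the threshold, 19 lost and 13 gained a call, and 0 called values changed sign, while 101 values without a call did. Of 4294 values of called list genes, 313 lost the call and 0 changed sign. Depth limits Atf3 and Fos most, with as few as 23 and 36 counts in a library.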
